A study of Mus musculus with 21 samples.

Results

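Enzymes and subunits that write Polycomb, DNA methylation, H3K4 methylation and acetylation marks were followed in germinal centre B cells of immunised mice. The set held 9 of the 14493 genes of the count matrix, taken by symbol: Ezh2, Eed, Suz12, Mtf2, Dnmt1, Uhrf1, Kmt2d, Crebbp and Ep300. All 9 symbols were found, each in 1 row. Their unique molecular identifiers (UMIs, each standing for 1 captured RNA molecule) were summed for every mouse, cell state and cell cycle phase, so that states could be compared within a phase.

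Polycomb repressive complex 2 (PRC2) places methyl groups on lysine 27 of histone H3, a mark of repressed genes. Ezh2 is its methyltransferase, Eed and Suz12 are core subunits it needs for activity, and Mtf2 is an accessory subunit that brings the complex to unmethylated CpG-rich DNA. Dnmt1 copies DNA methylation onto newly replicated strands, and Uhrf1 recognises hemimethylated DNA and recruits Dnmt1 to it. Kmt2d methylates lysine 4 of histone H3 at enhancers, and Crebbp and Ep300 are paralogous acetyltransferases that act there too. Germinal centre B cells divide fast and are known to need Ezh2, and EZH2, KMT2D, CREBBP and EP300 are recurrently mutated in human lymphomas of germinal centre origin.

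The cells were IgD-negative, eYFP-positive B cells from 6 mice immunised with 100 µg of the hapten-carrier antigen NP-KLH, 2 mice each at days 10, 16 and 22. All mice carried a tamoxifen-induced eYFP label made by Cre-ERT2 recombination (5 mg tamoxifen), and no mouse was left untreated. The labels used here give neither the strain nor the gene that drives Cre-ERT2. Plasma cells and the other cells were sorted apart, captured in separate wells and assigned to mice by hashtag antibodies, and RNA was read from the 5′ end of transcripts (10x 5′ chemistry).

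The authors' annotation gave each cell 1 of 6 states and 1 of 3 phases (G1, S, G2M). The states were LZtoDZ (232 cells, named as light zone cells passing to the dark zone), preMem (522 cells, memory precursors), prePC (47 cells, plasma cell precursors), PC (242 plasma cells), DZ (2382 dark zone cells, where B cells divide) and LZ (3194 light zone cells, where B cells are selected). The annotation was made on the same cells' expression by rules the sources used here do not state. Of the DZ cells 36.6% were in G2M and 37.0% in G1, of the LZtoDZ cells 24.6% and 7.33%, and of the LZ cells 13.4% and 54.2%, so a comparison over all phases would mix state with phase.

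Each mouse gave 573 to 1619 cells and 6260885 to 18599219 UMIs, and 6 barcodes occurred in both wells. Levels are given as CPM, UMIs of the gene per 1e6 UMIs of the sum. The UMI totals of the members were 8697 for Ezh2, 6433 for Eed, 4336 for Suz12, 9259 for Mtf2, 13582 for Dnmt1, 7086 for Uhrf1, 437 for Kmt2d, 2026 for Crebbp and 2089 for Ep300, so the precision was lowest for Kmt2d. Because reads come from transcript ends and no length scaling was applied, levels are compared across cells for 1 gene and not between genes. In these sums, fewer expressing cells and less RNA per cell cannot be told apart. The DZ, PC, preMem and LZ states carried the markers of their names: light zone markers summed to 427 to 552 CPM in DZ sums and 1488 to 1757 CPM in LZ sums, dark zone markers to 1654 to 1747 CPM in DZ sums and 807 to 893 CPM in LZ sums, and plasma cell markers to 19712 to 31252 CPM in PC sums and 1969 to 2150 CPM in LZ sums. Memory precursor markers summed to 918 to 1136 CPM in preMem and 32.3 to 91.7 CPM in LZ. The LZtoDZ and prePC states stood apart from their names in part: dark zone markers summed to 272 to 662 CPM in LZtoDZ, below LZ, and prePC had 2772 to 5857 CPM of plasma cell markers, overlapping the 2958 to 3230 CPM of DZ, and 329 to 1014 CPM of memory precursor markers, overlapping preMem.

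The members lie on 8 mouse chromosomes (GRCm38, GENCODE M21 gene bounds). The PRC2 genes are Ezh2 at chr6:47530139-47595341 (minus strand), Eed at chr7:89954654-89980983 (minus), Suz12 at chr11:79993106-80034123 (plus) and Mtf2 at chr5:108065674-108109004 (plus). The DNA methylation genes are Dnmt1 at chr9:20907209-20959888 (minus) and Uhrf1 at chr17:56303321-56323486 (plus). Kmt2d lies at chr15:98831669-98871204 (minus), Ep300 at chr15:81585351-81652077 (plus) and Crebbp at chr16:4081328-4213997 (minus).

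Because several members followed the phase calls, their promoters were searched for the letters of E2F sites, the elements bound by the E2F factors of cell cycle genes (TTTCCCGC, TTTGGCGC, TTTCGCGC or TTTGCCGC, on both strands). The windows were RefSeq's (GRCm38.p6), from 250 bases before to 50 bases after each annotated start. A match was present in 2.26% of all 32851 windows and in at least 1 window of 2.6% of 27025 genes. Of the members, Ezh2, Suz12, Dnmt1 and Uhrf1 had a match, and Eed, Mtf2, Kmt2d, Crebbp and Ep300 had none in their windows. The matches of the methyltransferase and of the DNA methylation pair are shown 5′ to 3′ on the strand of the gene with the E2F letters in capitals. Dnmt1 has 2 matches, both in the window of the third of its annotated starts: the first lies before the start and reads as E2F letters on the opposite strand, and the second lies after the start on the strand of the gene. The Uhrf1 match lies before the second of its starts.
Ezh2, chr6:47595009-47595038, minus strand: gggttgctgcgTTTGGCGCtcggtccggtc
Dnmt1, chr9:20952824-20952853, minus strand: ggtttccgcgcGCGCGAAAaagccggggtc
Dnmt1, chr9:20952574-20952601, minus strand: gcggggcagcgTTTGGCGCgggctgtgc
Uhrf1, chr17:56304117-56304146, plus strand: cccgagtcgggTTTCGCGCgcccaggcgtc

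Suz12 and Mtf2 are shown over the 250 bases before the first start, because one rose with the phase calls and the other was the member that followed the zone. Capitals mark E2F letters and CCAAT boxes (CCAAT or its reverse complement ATTGG, present in 37.4% of all windows). The Mtf2 window of the first start has 0 CCAAT boxes, and the window of its second start, which is not shown, has 3. These letters are descriptions of the sequence, and binding was not measured.
Suz12, chr11:79992856-79993105, plus strand: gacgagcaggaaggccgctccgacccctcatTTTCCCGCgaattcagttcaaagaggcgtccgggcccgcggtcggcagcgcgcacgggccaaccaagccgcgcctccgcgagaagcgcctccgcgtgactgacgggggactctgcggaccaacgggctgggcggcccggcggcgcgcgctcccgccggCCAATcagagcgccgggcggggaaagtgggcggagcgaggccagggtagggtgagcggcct
Mtf2, chr5:108065424-108065673, plus strand: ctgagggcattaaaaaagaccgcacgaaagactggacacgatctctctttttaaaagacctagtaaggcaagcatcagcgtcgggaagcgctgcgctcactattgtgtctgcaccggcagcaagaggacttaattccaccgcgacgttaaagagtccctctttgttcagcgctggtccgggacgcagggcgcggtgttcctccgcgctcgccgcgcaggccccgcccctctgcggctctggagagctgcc

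Across the phase calls, the catalytic and core PRC2 genes and Dnmt1 were higher in S and G2M cells than in G1 cells of both zones, while Crebbp and Kmt2d did not pass the test and Ep300 was lower in S and G2M cells of DZ. Differences are log2 differences with their standard error from edgeR's quasi-likelihood test with the mouse as a block, and p-values are Benjamini-Hochberg adjusted over every gene in the fit and pass under 0.05. Uhrf1 is 1 of the S phase genes that Seurat supplies for calling phases and the phase method is not stated, so its phase differences are described without a test. The other 8 members are not in that list.

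Ezh2 in LZ had a lowest, median and highest level of 150, 180 and 206 CPM in G2M cells, 141, 145 and 158 CPM in S cells, and 57.6, 67.4 and 72.5 CPM in G1 cells. The G1 levels of the 6 mice lay below every S and G2M level. The difference from G1 was 1.45 ± 0.08 in G2M (adjusted p = 2.42e-09) and 1.16 ± 0.07 in S (adjusted p = 9.83e-10). In DZ the levels were 164, 183 and 228 CPM in G2M cells, 119, 148 and 176 CPM in S cells and 60.2, 61.2 and 89.8 CPM in G1 cells, again without overlap with G1, and the differences were 1.54 ± 0.09 (adjusted p = 4.32e-09) and 1.21 ± 0.10 (adjusted p = 2.14e-07).

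Suz12 averaged 81.7 ± 10.4 CPM in G2M cells and 73.0 ± 4.88 CPM in S cells of LZ, against 43.9 ± 4.72 CPM in G1 cells (SD, n = 6 mice). It rose by 0.92 ± 0.11 in G2M and 0.74 ± 0.09 in S in LZ, and by 1.13 ± 0.10 and 1.10 ± 0.15 in DZ. Eed, whose product binds the methylated lysine, averaged 104 ± 18.3 CPM in G2M, 119 ± 8.04 CPM in S and 76.7 ± 12.2 CPM in G1 cells of LZ. It rose by 0.43 ± 0.08 in G2M and 0.60 ± 0.07 in S in LZ, and by 0.73 ± 0.11 and 0.87 ± 0.10 in DZ. Both genes therefore passed the test in both phases and both zones, by less than Ezh2 in each of these comparisons; the difference between the genes was not tested.

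Dnmt1 had its highest levels in S cells. In LZ the lowest, median and highest mouse had 297, 314 and 320 CPM in S cells, 210, 239 and 272 CPM in G2M cells and 98.7, 116 and 126 CPM in G1 cells, and the 3 ranges did not overlap. Dnmt1 rose by 1.43 ± 0.05 in S (adjusted p = 1.99e-12) and by 1.06 ± 0.06 in G2M in LZ, and by 1.43 ± 0.08 (adjusted p = 3.33e-09) and 0.92 ± 0.07 in DZ. Uhrf1, its partner at replicated DNA, averaged 206 ± 13.0 CPM in S cells, 102 ± 21.7 CPM in G2M cells and 40.0 ± 4.10 CPM in G1 cells of LZ, and 179 ± 22.3, 76.1 ± 4.58 and 34.4 ± 6.82 CPM in DZ.

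Mtf2 differed little between phases. It rose by 0.35 ± 0.06 in S (adjusted p = 0.000218) and by 0.39 ± 0.08 in G2M (adjusted p = 0.00202) in LZ. In thinned cells the S difference in LZ was 0.23 and did not pass (adjusted p = 0.0509); S cells of LZ were deeper than G1 cells, with a median of 9947 UMIs against 6573 UMIs. In DZ its S level did not pass the test (0.16 ± 0.09, adjusted p = 0.17), except without the first day 10 mouse (0.23, adjusted p = 0.0274), and its G2M difference of 0.24 ± 0.07 (adjusted p = 0.0131) passed narrowly, and was lost with DESeq2, in thinned cells, without the mouse block and in 1 fit over all sums (adjusted p = 0.0576 to 0.0978).

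Ep300 in DZ averaged 29.7 ± 5.27 CPM in G2M cells and 30.0 ± 3.02 CPM in S cells, against 42.9 ± 6.18 CPM in G1 cells. Every S level lay below every G1 level. These are shares of UMIs: per cell, Ep300 averaged 0.404 UMIs in G2M, 0.373 in S and 0.315 in G1 cells of DZ. Ep300 fell by 0.46 ± 0.11 in G2M (adjusted p = 0.00591) and by 0.45 ± 0.12 in S (adjusted p = 0.00978), and the S call was lost with DESeq2 (adjusted p = 0.21) and in cells thinned to equal depth (adjusted p = 0.14). In LZ the Ep300 differences of -0.18 and -0.13 did not pass. Crebbp had differences of -0.18 to 0.23 over the 4 comparisons, and Kmt2d differences of -0.70 to 0.18; none passed. Under alternatives, Crebbp in LZ G2M cells passed when thinned (0.56, adjusted p = 0.0391), and Kmt2d in DZ G2M cells passed with totals outside immunoglobulin genes (-0.75, adjusted p = 0.0418) and without the first day 10 mouse (-0.94, adjusted p = 0.0299).

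Of the 8 members tested, 5 rose in S and 5 in G2M cells of LZ, where 19.9% and 19.8% of all genes tested were called higher and 17.7% and 17.3% lower. In DZ 4 rose and 1 fell in S, and 5 rose and 1 fell in G2M, where 18.9% and 19.6% of all genes were called higher and 14.4% and 17.7% lower. The 2 zones' phase differences were also compared with each other, and no member passed. This zone-by-phase difference, DZ minus LZ, was 0.05 ± 0.12 in S and 0.09 ± 0.12 in G2M for Ezh2. For Eed it was 0.27 ± 0.13 in S (adjusted p = 0.605) and 0.33 ± 0.13 in G2M (adjusted p = 0.191). Across all genes 0.99% and 0.0965% were called higher and lower in DZ for the S difference, and 2.45% and 0.809% for the G2M difference.

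**Figure D1:**
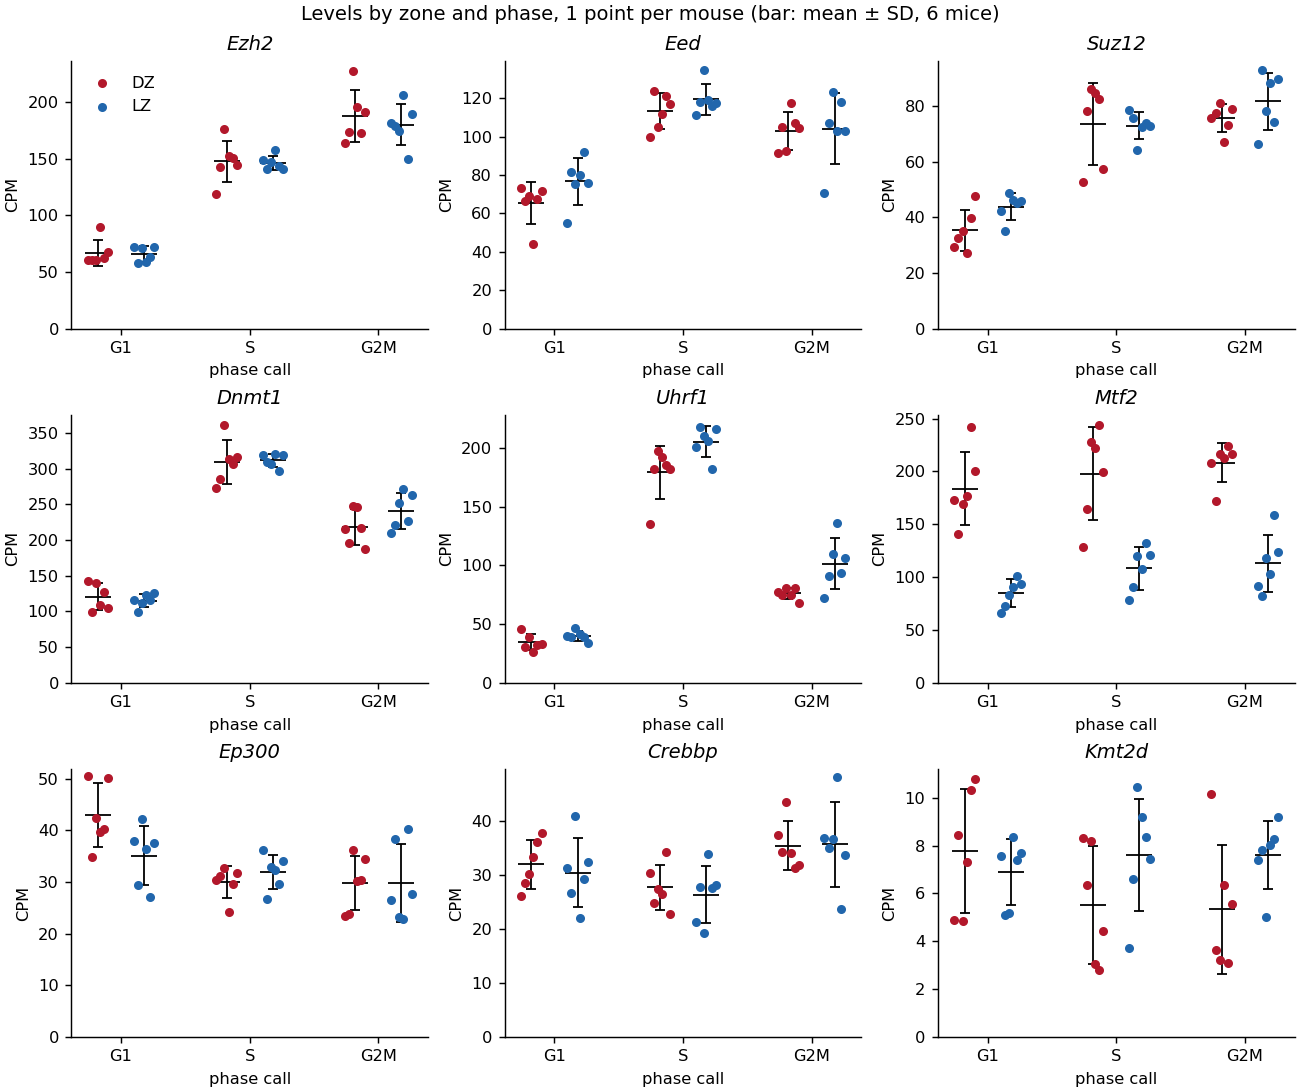
Level of each of the 9 members (CPM, linear axis from 0) by phase call in DZ and LZ cells, with 1 point per mouse and bars for the mean ± SD of 6 mice. Ezh2, Eed, Suz12, Dnmt1 and Uhrf1 have their lowest levels in G1 in both zones, and Mtf2 averages 184, 198 and 208 CPM in G1, S and G2M cells of DZ against 84.5, 108 and 113 CPM in LZ.

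The question of the zones is whether these enzymes differ between the dark zone, where cells divide, and the light zone, where they are selected, once the phase is held fixed. Mtf2 was higher in DZ than in LZ in every phase, by about 1 log2 unit, in 6 of 6 mice each time. Ezh2 and Dnmt1 did not pass the test in any phase and had differences near 0. Uhrf1 was lower in DZ in 5 of 6 mice in each phase and passed the test among G2M cells.

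Mtf2 in G1 cells had a lowest, median and highest level of 141, 174 and 242 CPM in DZ, against 66.0, 87.0 and 101 CPM in LZ. In S cells it had 129, 211 and 244 CPM in DZ, against 77.8, 113 and 132 CPM in LZ. In G2M cells it had 172, 214 and 224 CPM in DZ, against 82.5, 111 and 158 CPM in LZ. The zones did not overlap in G1 or G2M; in S the lowest DZ mouse lay just under the highest LZ mouse, although each mouse was higher in its own DZ cells.

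The Mtf2 difference was 1.07 ± 0.07 in G1 (adjusted p = 2.28e-08), 0.89 ± 0.06 in S (adjusted p = 2e-07) and 0.92 ± 0.09 in G2M (adjusted p = 1.52e-05). By p-value Mtf2 ranked 33 of 8248 genes in G1, 21 of 8262 in S and 43 of 7978 in G2M. It passed under every one of 18 alternatives in each phase, with differences of 1.01 to 1.12, 0.85 to 1.05 and 0.78 to 1.01. In cells matched between the zones for the summed level of S phase and G2 and M phase genes the differences were 1.06, 0.87 and 0.94, and in cells thinned to 4727 UMIs each they were 1.01, 1.05 and 0.78.

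**Figure D2:**
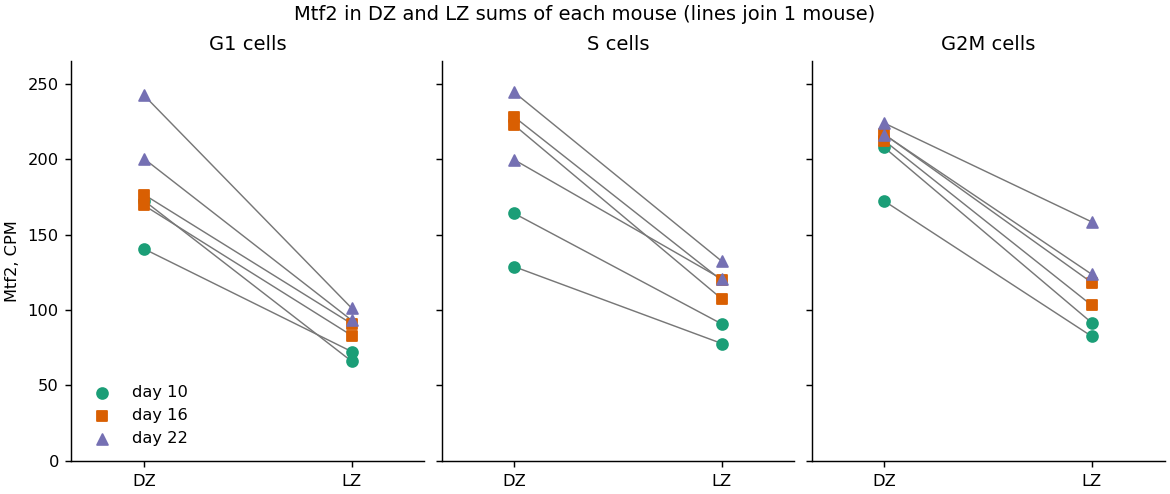
Mtf2 (CPM, linear axis from 0) in the DZ and LZ sums of each of 6 mice, joined by a line, within G1, S and G2M cells, with the day of each mouse as the symbol. All 18 lines are lower at LZ, and DZ levels span 141 to 242 CPM in G1, 129 to 244 CPM in S and 172 to 224 CPM in G2M.

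Uhrf1 in G2M cells averaged 76.1 ± 4.58 CPM in DZ and 102 ± 21.7 CPM in LZ, with ranges of 68.2 to 80.5 CPM in DZ and 72.3 to 136 CPM in LZ. The ranges overlapped and Uhrf1 was lower in DZ in 5 of 6 mice. The difference of -0.39 ± 0.11 passed narrowly (adjusted p = 0.0354) and was lost with DESeq2 (adjusted p = 0.081), in thinned cells (-0.29, adjusted p = 0.30), in cells matched for those cell cycle genes (-0.35, adjusted p = 0.17) and without any 1 of 5 of the mice (adjusted p = 0.052 to 0.12). The position within the phase moved with it: among G2M cells, 11 of 24 S phase genes were lower in DZ and none higher (median -0.24), and 15 of 24 G2 and M phase genes were higher and 1 lower (median 0.34). The matched cells were matched on the sum of both lists, in which these opposite shifts can offset. They therefore do not test the position within the phase, and the part of these genes in the Uhrf1 difference was not tested. In G1 and S the Uhrf1 differences were -0.28 ± 0.12 (adjusted p = 0.114) and -0.17 ± 0.07 (adjusted p = 0.116), and they did not pass; with totals outside immunoglobulin genes the S difference passed (-0.18, adjusted p = 0.0404).

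Ezh2 had DZ over LZ differences of -0.01 ± 0.11 in G1, 0.03 ± 0.07 in S and 0.07 ± 0.08 in G2M, and Dnmt1 of 0.00 ± 0.10, 0.00 ± 0.05 and -0.13 ± 0.07. Eed and Suz12 were lower in DZ G1 cells by a margin that did not pass, -0.31 ± 0.11 (adjusted p = 0.0772) and -0.33 ± 0.12 (adjusted p = 0.0784), and lay between -0.10 and 0.04 in S and G2M. These G1 values depend on the setting: Eed passed with no filter (adjusted p = 0.00895), with immunoglobulin genes left out (adjusted p = 0.00532), with totals outside immunoglobulin genes (adjusted p = 0.0187) and without the first day 10 mouse (adjusted p = 0.0188). Suz12 passed with immunoglobulin genes left out (-0.31, adjusted p = 0.0468) and without the second day 22 mouse (-0.43, adjusted p = 0.0401).

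Ep300 in G1 was higher in DZ in 6 of 6 mice, at 42.9 ± 6.18 CPM in DZ and 35.1 ± 5.69 CPM in LZ, and did not pass (0.27 ± 0.11, adjusted p = 0.115), except with totals outside immunoglobulin genes (0.32, adjusted p = 0.0376). Crebbp, its paralogue, had differences of 0.09, 0.05 and 0.01 in G1, S and G2M. Kmt2d, at 5.33 to 7.77 CPM in DZ and 6.89 to 7.62 CPM in LZ on average, had differences of 0.21, -0.60 and -0.61, with standard errors up to 0.32, and none passed.

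Thus 1 of 9 members was called higher and none lower in G1, against 8.38% and 9.07% of all genes tested. In S 1 was higher and none lower, against 7.5% and 6.84% of all genes. In G2M 1 was higher and 1 lower, against 6.68% and 6.22% of all genes.

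**Figure D3:**
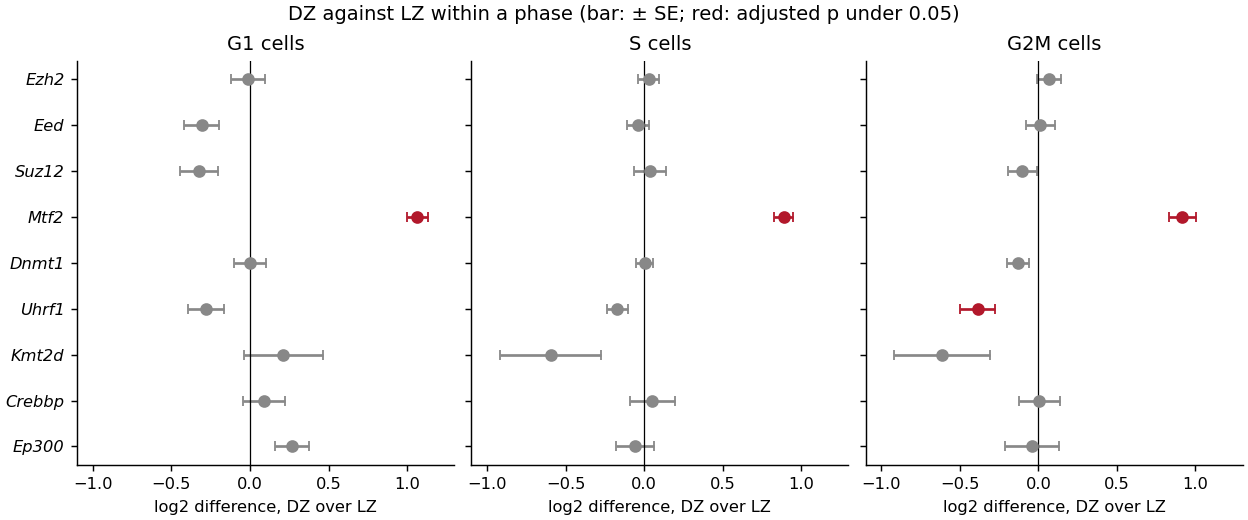
Log2 difference of each member, DZ over LZ, within G1, S and G2M cells of 6 mice, with bars for ± SE and red points for an adjusted p under 0.05. Mtf2 lies at 1.07, 0.89 and 0.92, and Uhrf1 in G2M at -0.39. In G1 the bars of Eed, Suz12 and Uhrf1 lie below 0 and that of Ep300 above it, without passing. The bars of Kmt2d are wide.

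Other genes of the same pathways were counted in the same fits, for which the shares of all genes called are given above. Of 8 other PRC2 genes in G1, 1 was higher and 2 lower in DZ (median -0.01): Phf19, a paralogue of Mtf2, rose by 0.59 ± 0.15 (adjusted p = 0.0141), while the cofactor Jarid2 fell by 0.70 ± 0.18 and the histone chaperone Rbbp7 fell by 0.30 ± 0.06. Mbd2, a reader of methylated DNA, was also higher in DZ in each phase: it rose by 1.10 ± 0.09 in G1, with mean levels of 109 CPM in DZ and 49.9 CPM in LZ, by 0.99 ± 0.08 in S and by 0.96 ± 0.08 in G2M. Its relative Mbd3, a subunit of the NuRD corepressor, fell by 0.84 ± 0.11, 0.59 ± 0.09 and 0.57 ± 0.11. In all, 1, 1 and 3 of the 9, 9 and 8 other DNA methylation genes tested were higher in DZ and 2, 1 and 1 lower. Of 14 H3K4 methylation genes tested in each phase, 1 was higher and none lower in DZ in G1, 2 and none in S, and 1 and 1 in G2M. Among the higher ones was Kmt2a, a methyltransferase related to Kmt2d, which rose by 0.40 ± 0.10, 0.61 ± 0.09 and 0.35 ± 0.10.

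Of the other acetyltransferase genes, 10 could be tested in G1, 10 in S and 8 in G2M; 1 was lower in DZ, in S, and none was higher. A list of genes reported to depend on Kmt2d or Crebbp in B cells had 1 of 7 higher and 6 lower in DZ in G1 (median -0.66), and 5 of 7 lower in S and in G2M. Its genes of lowest p in G1 included Cd83, which fell by 2.04 ± 0.06 with 163 CPM in DZ and 653 CPM in LZ, and Cd40, which fell by 1.46 ± 0.08; both are also on the light zone marker list. Crebbp and Kmt2d themselves did not pass in these comparisons, and whether they have a part in the list's differences was not tested.

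Cells annotated LZtoDZ could be compared with LZ in S (5 mice) and in G2M (3 mice), and had too few cells in G1. In S, Dnmt1 and Ep300 were lower in LZtoDZ cells, and Ezh2 and Mtf2 were higher. In G2M Dnmt1 alone passed and was again lower. These cells were much deeper than LZ cells, with a median of 22505 UMIs against 9947 UMIs in S, and 43 of the 232 came from the plasma cell well. Whether doublets are among them was not tested.

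Dnmt1 in S had 179, 217, 201, 261 and 211 CPM in the LZtoDZ sums of the second day 10 mouse, the 2 day 16 mice and the 2 day 22 mice, against 310, 307, 320, 297 and 319 CPM in LZ sums of the same mice. Every LZtoDZ level lay below every LZ level. The difference was -0.47 ± 0.09 (adjusted p = 0.000624), and it passed under all 16 alternatives, at -0.58 to -0.37. It was -0.53 in cells of the non-plasma-cell well and -0.37 in thinned cells (adjusted p = 0.0345).

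The Dnmt1 result is one of share and not of molecules per cell: the LZtoDZ cells of these 5 mice held 4.97, 5.40, 4.62, 6.33 and 4.53 Dnmt1 UMIs each, against 3.54, 3.01, 3.52, 3.08 and 3.02 in LZ cells. The S phase genes, on the same share scale, summed to 5008 to 5947 CPM in LZtoDZ and 5879 to 6458 CPM in LZ cells called S, with 4 of 24 called higher and 5 lower. In G2M, Dnmt1 had 138, 182 and 111 CPM in the LZtoDZ sums of the second day 10, second day 16 and first day 22 mice, against 222, 272 and 227 CPM in LZ sums, without overlap. The G2M difference was -0.71 ± 0.16 (adjusted p = 0.00353), and in thinned cells -0.78 (adjusted p = 0.0758).

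Ep300 in S had 19.5, 12.1, 21.0, 20.6 and 13.1 CPM in LZtoDZ sums, on 6 to 19 UMIs each, against 26.7, 32.9, 32.4, 29.7 and 34.0 CPM in LZ sums. The groups did not overlap, and the difference was -0.72 ± 0.19 (adjusted p = 0.00737). Per cell, Ep300 averaged 0.421 UMIs in LZtoDZ (5 mice) and 0.335 UMIs in LZ (6 mice), so this result too is one of share. Ezh2 had 166, 167, 175, 194 and 159 CPM in LZtoDZ sums, against 141, 147, 158, 144 and 141 CPM in LZ sums. Each Ezh2 level lay above every LZ level, with a difference of 0.31 ± 0.08 (adjusted p = 0.00602).

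Mtf2 had 125, 129, 147, 169 and 102 CPM in LZtoDZ sums, against 90.8, 120, 107, 132 and 121 CPM in LZ sums. Its groups overlapped and 4 of 5 mice were higher in LZtoDZ, with a difference of 0.32 ± 0.11 (adjusted p = 0.0249). With DESeq2 none of these 3 passed (adjusted p = 0.08 for Ep300 and for Ezh2, 0.154 for Mtf2), and in thinned cells none passed. In cells of the non-plasma-cell well Ep300 passed (-0.60, adjusted p = 0.0269), and Ezh2 (0.22, adjusted p = 0.0867) and Mtf2 (0.30, adjusted p = 0.0532) did not. Ep300 was also lost with at least 30 cells per sum (adjusted p = 0.066). Mtf2 passed in 8 of 16 alternatives, and was lost with library totals (adjusted p = 0.083), with at least 30 cells per sum (adjusted p = 0.137) and without the second day 10, the second day 16 or the first day 22 mouse (adjusted p = 0.0896 to 0.11). Suz12 (0.31, adjusted p = 0.0503), Eed (0.22, adjusted p = 0.0916), Uhrf1 (0.02), Crebbp (0.08) and Kmt2d (-0.43) did not pass. Suz12 passed without immunoglobulin genes, without the mouse block or without the second day 10 mouse (adjusted p = 0.0327 to 0.0439), and Eed without the first day 16 mouse (adjusted p = 0.0291).

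In S, 2 of 9 members were called higher and 2 lower, against 23% and 20.8% of all genes tested. In G2M none of the 8 members tested was higher and 1 was lower, against 16.3% and 13.6%. Among other DNA methylation genes in S, the glycosylase Mbd4 fell by 0.94 ± 0.11, with 78.3 CPM in LZtoDZ and 156 CPM in LZ, and the glycosylase Tdg rose by 0.90 ± 0.12, with 67.0 CPM in LZtoDZ and 37.8 CPM in LZ. Among other PRC2 genes 1 was higher, Aebp2 (0.98 ± 0.22), and 1 lower, Rbbp4 (-0.20 ± 0.07), of 7 tested.

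Memory precursors were nearly all in G1 (486 of 522 cells) and were compared with LZ there in 6 mice. No member passed the test, where 9.38% of all genes were called higher and 9.6% lower. Dnmt1 had a lowest, median and highest level of 61.0, 71.6 and 110 CPM in preMem and 98.7, 116 and 126 CPM in LZ, with overlap. The Dnmt1 difference was -0.36 ± 0.14 (adjusted p = 0.176), and it passed with sums scaled by library totals (-0.42, adjusted p = 0.042), by totals outside immunoglobulin genes (-0.35, adjusted p = 0.0325) or without the second day 10 mouse (-0.51, adjusted p = 0.028). Uhrf1 (-0.36, adjusted p = 0.24) and Eed (-0.31, adjusted p = 0.157) were each lower in 6 of 6 mice without passing, and Ezh2 lay at 0.05. Other DNA methylation genes did differ: of 10 tested 2 were higher and 2 lower, the dioxygenase Tet2 by 2.22 ± 0.46 and Uhrf2, a paralogue of Uhrf1, by 1.15 ± 0.29, against Mbd4 by -0.78 ± 0.13 and Mbd2 by -0.87 ± 0.22.

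**Figure D4:**
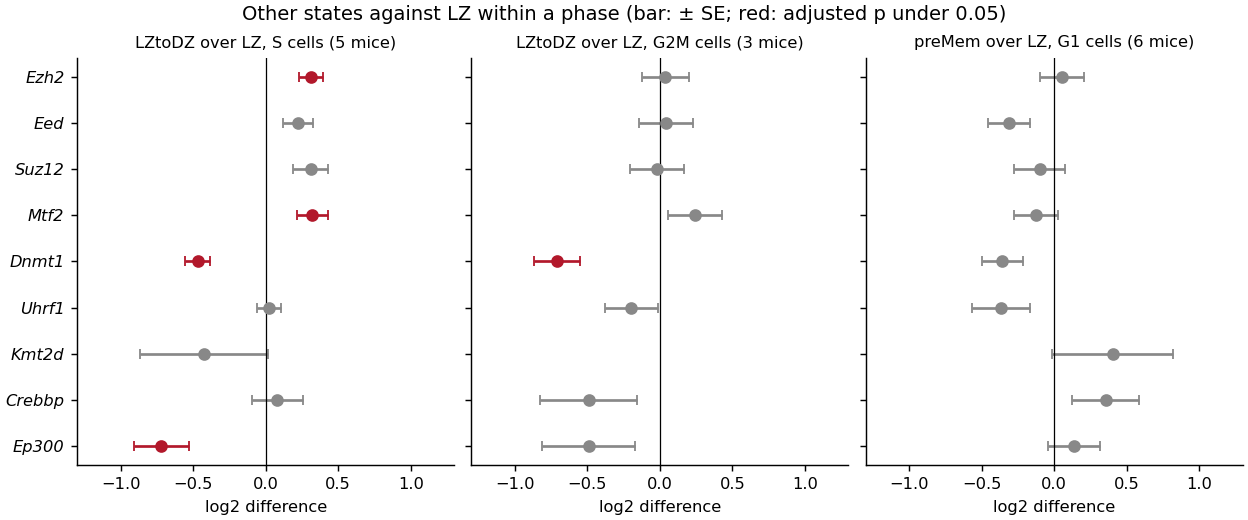
Log2 difference of each member over LZ for LZtoDZ cells in S (5 mice) and G2M (3 mice) and for preMem cells in G1 (6 mice), with bars for ± SE and red points for an adjusted p under 0.05. Dnmt1 lies at -0.47, -0.71 and -0.36, red in the first 2 panels, and Kmt2d has no point in G2M, where it was not tested.

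Plasma cell precursors were few. In G1, 4 mice gave 16, 3, 3 and 3 cells, and these held 12 Dnmt1 UMIs, 7 Ezh2 UMIs, 11 Eed UMIs and 2 Uhrf1 UMIs. Dnmt1 had 45.2, 0, 0 and 44.0 CPM in prePC sums, against 98.7, 123, 116 and 126 CPM in LZ sums of the same mice. The Dnmt1 difference of -1.71 ± 0.56 passed narrowly (adjusted p = 0.0416) and was lost without each mouse in turn and with DESeq2. Markers of other cells moved with it: in the 1 mouse with at least 10 prePC cells in G1, memory precursor markers summed to 1061 CPM in prePC, against 45.3 to 141 CPM in LZ of the 6 mice, and myeloid markers to 190 CPM in prePC, against 12.9 to 76.5 CPM in LZ. S phase genes summed to 578 CPM in prePC, against 1446 to 1614 CPM in LZ. The part of these in the result was not tested. No other member passed, except Uhrf1 without the mouse block (-2.44, adjusted p = 0.0292), and 2.74% of all genes were called higher and 2.78% lower, with the median of all genes tested at -0.33.

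Plasma cells were compared with LZ in G1 (5 mice) and with DZ in S (3 mice). In G1, Eed, Uhrf1, Dnmt1, Mtf2 and Ezh2 were lower in PC, and Suz12, the other core subunit of PRC2, did not pass the test. In S, Mtf2, Eed, Dnmt1 and Uhrf1 were lower in PC, and Ezh2 and Suz12 did not pass. Immunoglobulin genes took 29.7% of the UMIs of PC cells in G1 and 14.3% in S, against 1.44% in LZ G1 and 1.47% in DZ S cells. CPM levels in PC are lowered by that share, and the fits scale by TMM, which sets the middle of the genes near 0. PC cells were also deeper, with a median of 15912 UMIs in G1 and 23672 UMIs in S. The medians were 6573 UMIs in LZ G1 cells and 11644 UMIs in DZ S cells. The PC differences are therefore given as differences of share. Per cell, the 5 members lower in G1 were also lower: Eed averaged 0.170 UMIs in PC (5 mice) and 0.525 UMIs in LZ (6 mice). On that count Dnmt1 had 0.286 and 0.788, Uhrf1 0.0786 and 0.274, Mtf2 0.353 and 0.577, and Ezh2 0.264 and 0.451. Suz12 had 0.331 and 0.300.

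Eed in G1 had 15.8, 10.4, 6.98, 5.79 and 17.4 CPM in the PC sums of the 2 day 10 mice, the 2 day 16 mice and the first day 22 mouse, against 55.2, 81.9, 75.3, 80.1 and 92.2 CPM in LZ sums. Dnmt1 had 31.6, 27.8, 6.98, 17.4 and 8.70 CPM in PC sums, against 116, 98.7, 111, 123 and 116 CPM in LZ sums. Ezh2 had 31.6, 17.4, 6.98, 17.4 and 13.0 CPM in PC sums, against 72.5, 57.6, 71.4, 59.0 and 63.4 CPM in LZ sums. For each of the 3 genes all PC levels lay below all LZ levels. With library totals, the scale of CPM, the median of all genes tested was -0.97. The share of all genes without overlap was not counted.

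Eed differed by -2.03 ± 0.26 (adjusted p = 0.00015), Dnmt1 by -1.60 ± 0.27 (adjusted p = 0.000963) and Ezh2 by -1.07 ± 0.24 (adjusted p = 0.00524). Uhrf1 had 10.5, 6.09, 0, 0 and 8.70 CPM in PC sums, 11 UMIs in all, against 40.0, 38.8, 46.8, 41.3 and 38.7 CPM in LZ sums, and differed by -2.003 ± 0.41 (adjusted p = 0.00275). Mtf2 had 26.4, 15.7, 20.9, 17.4 and 39.1 CPM in PC sums, against 66.0, 72.5, 83.1, 90.9 and 101 CPM in LZ sums, without overlap. It differed by -1.11 ± 0.23 (adjusted p = 0.00292), and by -0.85 (adjusted p = 0.051) without the second day 10 mouse, which held 69 of the 122 PC cells in G1.

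Suz12 had 21.1, 27.0, 34.9, 11.6 and 17.4 CPM in PC sums, against 42.2, 35.2, 48.7, 46.2 and 45.3 CPM in LZ sums. The groups did not overlap on this scale, and after TMM scaling the difference was -0.03 ± 0.26. Crebbp (-0.50, adjusted p = 0.228) and Ep300 (-0.32, adjusted p = 0.406) did not pass, and Kmt2d, with 5 UMIs in PC cells, was not tested. Of the 8 members tested 5 were called lower and none higher, against 23.4% and 19% of all genes.

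These plasma cell values depend on the scale. The median of all genes tested was -0.21 with TMM, -0.46 with sums scaled by their UMIs outside immunoglobulin genes and -0.97 with library totals. Ezh2 lay at -1.07, -1.33 and -1.83 on the 3 scales, Dnmt1 at -1.60, -1.79 and -2.39, and Suz12 at -0.03, -0.29 and -0.80. Suz12 lay above the median on each scale and Ezh2 and Dnmt1 below it. A change of scale moves all genes by nearly the same amount, so these positions could hardly differ between the scales. Of all genes called, 44.9%, 30.2% and 15.6% were higher in PC on these scales. With library totals all 8 members were called lower, including Suz12 (adjusted p = 0.017), Crebbp (-1.26, adjusted p = 0.0036) and Ep300 (-1.07, adjusted p = 0.0043).

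Most PC cells (234 of 242) came from the plasma cell well, and LZ cells from the other. Within that well, the G1 cells pooled over mice gave 119 PC and 39 LZ cells. Dnmt1 there was at 23.4 CPM in PC (95% exact Poisson interval 17.0 to 31.5, counting error only) and 67.1 CPM in LZ (34.7 to 117). Eed was at 11.2 CPM in PC (6.92 to 17.1) and 55.9 CPM in LZ (26.8 to 103), and Ezh2 at 16.0 CPM in PC (10.8 to 22.8) and 44.8 CPM in LZ (19.3 to 88.2). Suz12 was at 24.5 CPM in PC (17.9 to 32.7) and 44.8 CPM in LZ (19.3 to 88.2). The intervals of Dnmt1 and of Eed did not overlap between PC and LZ, and those of Ezh2 and of Suz12 did. Cell cycle genes moved with these results too: S phase genes summed to 251 to 786 CPM in PC and 1446 to 1614 CPM in LZ cells called G1. Their part in the result was not tested.

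In S, Mtf2 had 30.1, 52.0 and 43.9 CPM in the PC sums of the second day 10, second day 16 and first day 22 mice, against 164, 223 and 244 CPM in DZ sums. Eed had 25.1, 48.5 and 43.9 CPM in PC sums, against 124, 112 and 121 CPM in DZ sums, and Dnmt1 had 81.5, 135 and 87.9 CPM in PC sums, against 286, 314 and 306 CPM in DZ sums. None of the 3 genes overlapped between PC and DZ. With library totals, the scale of CPM, the median of all genes tested was -0.45. The share of all genes without overlap was not counted.

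Mtf2 differed by -1.99 ± 0.17 (adjusted p = 0.000142), Eed by -1.37 ± 0.24 (adjusted p = 0.00372) and Dnmt1 by -1.26 ± 0.17 (adjusted p = 0.00117). Uhrf1 had 70.2, 107 and 87.9 CPM in PC sums, against 182, 192 and 185 CPM in DZ sums, and differed by -0.76 ± 0.16 (adjusted p = 0.00848), a call lost in thinned cells (adjusted p = 0.22) and without the second day 10 mouse (adjusted p = 0.065). Per cell, Uhrf1 averaged 2.24 UMIs in PC (3 mice) and 2.24 UMIs in DZ (6 mice). On the same count Mtf2 had 1.07 and 2.46, Eed 0.994 and 1.42, Dnmt1 2.58 and 3.85, and Ezh2 2.29 and 1.84. Ezh2 had 79.0, 111 and 81.1 CPM in PC sums, against 143, 153 and 151 CPM in DZ sums, and its difference of -0.38 did not pass (adjusted p = 0.0922). Suz12 (-0.19), Crebbp (-0.52) and Ep300 (-0.75, adjusted p = 0.13) did not pass either. The Ezh2 and Ep300 calls depend on the setting. Ezh2 passed with library totals (-0.74, adjusted p = 0.0104), with totals outside immunoglobulin genes (-0.57, adjusted p = 0.0207), without the mouse block (adjusted p = 0.0402) and in 1 fit over all sums (adjusted p = 0.0253). Ep300 passed with library totals (-1.11, adjusted p = 0.0347), with totals outside immunoglobulin genes (-0.94, adjusted p = 0.0488) and in 1 fit over all sums (adjusted p = 0.0436).

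In this comparison 4 of 8 members were lower and none higher, against 14.7% and 16.3% of all genes tested, with medians of -0.08, -0.27 and -0.45 and shares of 52.6%, 37.1% and 27.7% higher among the genes called on the 3 scales. Among PC cells themselves, Ezh2 averaged 60.8 CPM in G2M (2 mice), 90.3 CPM in S (3 mice) and 17.3 CPM in G1 (5 mice). Dnmt1 averaged 84.8, 102 and 18.5 CPM, so both had their lowest PC levels in G1, as in the zones; no test was run on these sums.

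**Figure D5:**
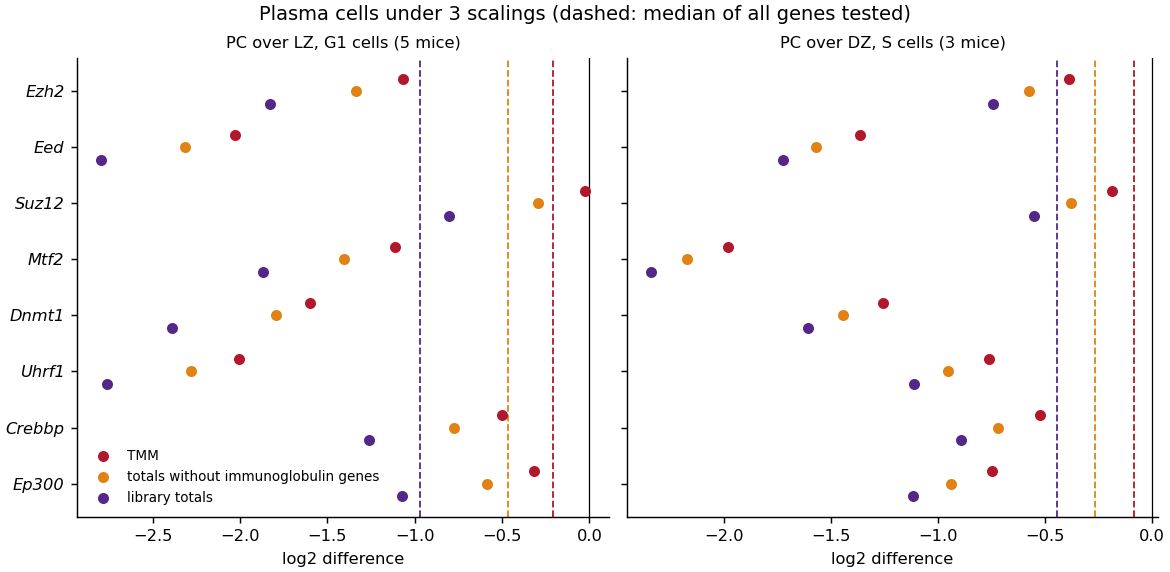
Log2 difference of 8 members for PC over LZ in G1 (5 mice) and PC over DZ in S (3 mice) under TMM, totals without immunoglobulin genes and library totals, with dashed lines for the median of all genes tested on each scale. Eed lies at -2.03 to -2.79 in G1, left of every median, and Suz12 at -0.03 to -0.80, right of the median of its scale.

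Other genes of these pathways in PC G1 cells were counted in the same fit, where 23.4% of all genes tested were called lower and 19% higher. Of 7 other PRC2 genes 3 were lower and none higher (median -0.78), Phf19 by 3.75 ± 0.88, Rbbp7 by 1.23 ± 0.20 and Rbbp4 by 0.78 ± 0.21 on the log2 scale. Of 14 genes of Polycomb repressive complex 1, which ubiquitinates histone H2A, 5 were lower (median -1.11), and of 16 deacetylase and corepressor genes 4 were lower, Hdac1 by 2.01 ± 0.33, and 1 was higher, Hdac5 by 2.55 ± 0.57. The acetyl-lysine reader Brd3 fell by 3.73 ± 0.46.

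Of all genes tested in PC against LZ in G1, 19% were called higher. A list of 5 genes reported as repressed through Ezh2 in germinal centre B cells was higher in PC in 5 of 5 members. The plasma cell regulators Irf4 (5.31 ± 0.29) and Prdm1 (5.17 ± 0.46), which are also on the plasma cell marker list, and the cell cycle inhibitors Cdkn1a (4.18 ± 0.52) and Cdkn1b (2.68 ± 0.36) had its lowest p-values. In preMem cells 9.38% of all genes were called higher, and Cdkn1b was the 1 of 3 genes of this list tested that passed. It was higher by 3.14 ± 0.32, with 55.8 CPM in preMem and 6.28 CPM in LZ. Whether Ezh2 has a part in these differences was not tested.

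Day 22 was compared with day 10 in G1 cells of LZ and in S and G2M cells of DZ, with 2 mice each. No member passed. In LZ G1 cells 0.42% of all genes were called higher and 1.17% lower at day 22, and in DZ 0.218% and 0.338%. Mtf2 had 101 and 93.2 CPM at day 22 and 66.0 and 72.5 CPM at day 10 in LZ G1 cells, and 233 and 209 CPM at day 22 and 179 and 169 CPM at day 10 in DZ S and G2M cells. The days did not overlap, and the differences of 0.41 ± 0.12 (adjusted p = 0.145) and 0.30 ± 0.09 (adjusted p = 0.269) did not pass. They passed when sums were scaled by UMIs outside immunoglobulin genes (0.46, adjusted p = 0.0291, and 0.35, adjusted p = 0.0324).

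Finally, the genes whose levels ran most like each member over 11 populations of state and phase were listed among 4621 genes. These correlations are descriptions: the populations share mice, wells and depth, and the phase calls order them. Ezh2 was closest to Lsm3 (r = 0.996), Cbx1 (r = 0.995), Kif15, Tmpo and Cbx5. Dnmt1 was closest to Dnajc9 (r = 0.993), Raly, Taf6, Rbbp4 and Cdk2, and Uhrf1 to Chaf1a (r = 0.992), Orc6, Hells, Prim1 and Mcm7. Mtf2 was closest to a different set, Tcea1 (r = 0.985), Gcsam, Vps35, Psmd4 and Ktn1. Between members, r was 0.973 for Ezh2 and Suz12, 0.947 for Dnmt1 and Eed, 0.762 for Ezh2 and Mtf2, and 0.243 for Ezh2 and Ep300.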

How the data were processed

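The deposited file used here is the authors' matrix of UMI counts per gene and cell, with their table of mouse, state and phase for each of 6619 cells. The well of a cell was read from the PC or NonPC prefix of its name, which gives the sorted fraction. Each fraction had 8 gene expression libraries, and the matrix does not tell these apart. Cell Ranger, Seurat and the builds mm10 and GRCm38 are named in the submitters' processing notes, without versions of the tools; how states, phases and doublets were called is not given in the sources used here, and no doublet caller was run. B cell receptor and hashtag libraries were not used. The 21 samples of the series are sequencing libraries of pooled mice, so the mouse, taken from the cell table, is the replicate (6 mice).

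Counts were summed per mouse, state and phase. Sums of at least 10 cells (3 for prePC) were kept, and a comparison needed 3 mice. edgeR 4.0.16 (R 4.3.3) gave quasi-likelihood tests with TMM factors, filterByExpr and the mouse as a block, since both sums of a pair came from the same mouse; days were compared without it. P-values were Benjamini-Hochberg adjusted over every gene in the fit and passed under 0.05, and the standard error is the log2 difference over the square root of F. The fits were tested on simulated counts. Simulated 2-fold changes were called for 79 of 99 genes in DZ against LZ in G1 and 48 of 95 in preMem. They were called for 39 of 90 genes in PC against LZ, 15 of 90 in PC against DZ and 2 of 94 in prePC. In these last comparisons 4-fold changes were called for 81 of 92, 75 of 94 and 23 of 96 genes. A member that did not pass there may still differ. Alternatives were DESeq2 1.42.0 (its size factors, or its test), no filter, 30 cells per sum, cells thinned to 4727 UMIs (662 shallower cells left out), no immunoglobulin genes (253 genes), no mouse block, 1 fit over all sums, the non-plasma-cell well alone, cells matched for cell cycle genes, only the mice of the 2 days compared, and each mouse left out. Library totals, with and without immunoglobulin genes, were added after seeing the data. Phase gene lists came from Seurat 5.3.0. Mice gave 6260885 to 18599219 UMIs, and cells 1335 to 70744.

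The members and gene lists were chosen with earlier results of these data known. Named genes are the 9 members, up to 4 genes of lowest p of a list, and the 5 genes most like a member by Pearson correlation of mean log2(CPM + 1), among genes of at least 20 CPM; named list genes that did not pass are left out. Gene positions and promoters are from GENCODE M21 and RefSeq (GRCm38.p6).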

Additional observations from a re-analysis of the deposited data

Results flagged for a closer look

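In 81 groups of 4 to 6 mice, 9 held a mouse far from the others for a member, by Dixon's test at the 95% level; chance alone gives about 1 in 20 groups. Ezh2 in DZ G1 cells was at 89.8 CPM in the second day 16 mouse, against 60.2 to 67.8 CPM in the others. In the same sum Eed was at 43.9 CPM, against 66.6 to 73.2 CPM. Eed in LZ S cells was at 135 CPM in the first day 16 mouse, against 111 to 119 CPM.

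Mtf2 in DZ G2M cells was at 172 CPM in the second day 10 mouse, against 208 to 224 CPM. Uhrf1 in DZ S cells was at 136 CPM in the first day 10 mouse, against 182 to 198 CPM, and Ep300 in DZ S cells was at 24.2 CPM in the second day 16 mouse, against 29.7 to 32.8 CPM.

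The other 3 values rest on few UMIs. Mtf2 in preMem G1 cells was at 132 CPM in the first day 16 mouse (26 UMIs in 37 cells), against 56.1 to 76.8 CPM. Uhrf1 in preMem G1 cells was at 12.7 CPM in the first day 10 mouse (4 UMIs in 47 cells), against 29.5 to 35.6 CPM. Kmt2d in PC G1 cells was at 4.35 CPM in the second day 10 mouse (5 UMIs in 69 cells), and at 0 in the others.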

How the results depend on the processing

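Of 2317 tested member values under alternatives, 2114 kept their sign and their side of the threshold, 132 that passed in neither fit changed sign, 39 lost their call, 32 gained one and none of the called ones turned; 29 of the 40 called values passed under every alternative. Without the mouse block, in which each mouse is paired with itself, 2 members passed in prePC (1 with it) and no other count of members called moved by over 1.5 times. The members called for DZ against LZ were 1 in G1, 3 without immunoglobulin genes or with totals outside them and 2 with no filter; 1 in S and 2 with totals outside immunoglobulin genes; and 2 in G2M and 1 with DESeq2, thinned or matched cells. Leaving out 1 mouse gave 1 to 2 in G1 and 1 to 2 in G2M. For LZtoDZ in S 4 were called, 1 with DESeq2 or thinned cells and 2 with 30 cells per sum or the non-plasma-cell well, and in G2M 1, or 0 when thinned. For preMem 0 were called, 1 with either kind of totals and 0 to 1 without 1 mouse; for prePC 1, and 0 with DESeq2's size factors or test and 0 without any 1 mouse; for PC against LZ 5, and 8 with library totals; and for the days 0, and 1 in each with totals outside immunoglobulin genes. The causes were not tested.

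The number of genes called ranged over the alternatives too: DZ against LZ had 1439 in G1 (536 to 1851), 1185 in S (515 to 1429) and 1029 in G2M (480 to 1346). S against G1 had 3330 in LZ (1531 to 3646) and 2603 in DZ (1245 to 3012), and G2M against G1 had 2997 in LZ (1757 to 3301) and 2997 in DZ (1929 to 3427). LZtoDZ had 3352 in S (1571 to 3606) and 1765 in G2M (596 to 2439), preMem 1595 (856 to 2053), prePC 425 (207 to 561), and PC 3231 against LZ (1852 to 5134) and 2243 against DZ (870 to 3752). The zone-by-phase differences had 90 (0 to 122) and 270 (10 to 343), and the days 136 in LZ (70 to 388) and 51 in DZ (14 to 372). The share of called genes that was higher moved with the scale, from TMM to totals outside immunoglobulin genes, for DZ against LZ in G1 (48% and 61.1%), S against G1 in DZ (56.8% and 45.5%), G2M against G1 in DZ (52.6% and 42.5%), preMem (49.4% and 39.2%), the zone-by-phase differences (91.1% and 38.1%, 75.2% and 32.9%) and the days (26.5% and 62.6%, 39.2% and 57.9%).

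Depth limits Kmt2d everywhere and every member in prePC. States and phases were called on the cells tested, and each day had 2 mice.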

Other observations

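Some other genes of these pathways also differed between the phase calls. Of all genes tested, 19.9% were called higher and 17.7% lower in S than in G1 cells of LZ. For G2M against G1 cells of DZ these shares were 19.6% and 17.7%. In S cells of LZ, 3 of 8 other PRC2 genes were higher and 2 lower than in G1 cells: the histone chaperones Rbbp4 and Rbbp7 averaged 503 and 496 CPM in S and 266 and 250 CPM in G1 (0.91 ± 0.04 and 0.99 ± 0.05), Phf19 rose by 0.83 ± 0.11, and Jarid2 fell by 0.94 ± 0.15. Of 10 other acetyltransferase genes 1 was higher and 1 lower. The higher one was Hat1, which acetylates newly made histone H4, at 182 CPM in S and 55.9 CPM in G1 (1.70 ± 0.08). In G2M cells of DZ, 5 of 8 other DNA methylation genes were higher than in G1 cells and none lower. Among them were the readers Mbd2 (0.60 ± 0.08) and Mbd1 (0.42 ± 0.12), the NuRD subunit Mbd3 (0.48 ± 0.13) and the glycosylase Mbd4 (0.52 ± 0.09).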
